A study of Mus musculus with 8 samples.

Results

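The endothelin and angiotensin system is represented here by 9 genes: Edn1, Ece1, Ednra and Ednrb for endothelin, and Agt, Ace, Agtr1a, Agtr2 and Mas1 for angiotensin. Every probe whose RefSeq accession belongs to 1 of these genes was taken, which gave 13 of the 56590 probes measured and 9 of the 22909 genes with a named probe. All 9 genes met the signal filter and were among the 15744 genes tested. Of the 13 probes, 10 were well above background on all 8 arrays and 1, the dimmer Mas1 probe, was above it on none. Ednrb had 3 probes, Ece1 and Mas1 had 2 each, and the other 6 genes had 1. No probe was saturated.

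RNA came from heart ventricle of KI and WT mice at 1 week and at birth (0 days), with 2 single-colour (Cy3) Agilent arrays in each of the 4 groups. KI mice are homozygous (TNNT2ΔK210/ΔK210) for a knock-in deletion of lysine 210 in the gene of cardiac troponin T that serves as a model of inherited dilated cardiomyopathy, and WT mice carry no such allele. The protocol describes pools of 3 ventricles, the design text speaks of the left ventricle, and the labels used here give neither sex nor strain. Nothing in the labels tells whether a group's arrays were hybridised with RNA of different pools, and errors and p-values here therefore measure a spread between arrays that may be technical. The deposited value table and the deposited scanner files name different samples for 3 of the 4 arrays at 1 week, which are called A to D. Arrays B and C were KI and arrays A and D were WT by the value table, which is used throughout unless the scanner files are named; by the scanner files C and D were KI and A and B were WT.

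Endothelin-1 is made as a long precursor that a membrane protease, the product of Ece1, cuts to the active peptide. It constricts vessels and drives hypertrophic growth through the receptor of Ednra on smooth muscle and cardiomyocytes, while the receptor of Ednrb, found on endothelium and in neural crest derivatives, also releases nitric oxide and clears the peptide. In the angiotensin system renin cuts angiotensinogen (Agt), the enzyme of Ace makes angiotensin II from the product, the receptor of Agtr1a carries most of its constrictor and growth actions, and the receptors of Agtr2 and Mas1 are usually described as opposing them. Agtr2 is known as a receptor of fetal tissues.

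The promoters of the genes that differed most between ages or genotypes in the fits below are shown so that a reader can see the sequence at each start: Edn1 and Ednrb, which had the smallest p-values between genotypes at birth, Agtr2, and Mas1. Each window runs from 250 bases before to 50 bases after the start and comes from RefSeq (GRCm38.p6), 5′ to 3′ on the strand of the gene. The windows are chr13:42301226-42301525 on the plus strand for Edn1, chr14:103843652-103843951 on the minus strand for Ednrb, chrX:21484374-21484673 on the plus strand for Agtr2 and chr17:12868094-12868393 on the minus strand for Mas1. Capitals mark matches to the motifs named after the sequences.
Edn1: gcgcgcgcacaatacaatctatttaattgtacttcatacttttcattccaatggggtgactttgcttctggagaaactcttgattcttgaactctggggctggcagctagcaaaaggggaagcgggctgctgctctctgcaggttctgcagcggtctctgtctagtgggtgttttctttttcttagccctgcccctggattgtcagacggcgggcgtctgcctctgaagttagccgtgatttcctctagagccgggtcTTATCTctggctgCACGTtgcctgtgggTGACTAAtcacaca
Ednrb: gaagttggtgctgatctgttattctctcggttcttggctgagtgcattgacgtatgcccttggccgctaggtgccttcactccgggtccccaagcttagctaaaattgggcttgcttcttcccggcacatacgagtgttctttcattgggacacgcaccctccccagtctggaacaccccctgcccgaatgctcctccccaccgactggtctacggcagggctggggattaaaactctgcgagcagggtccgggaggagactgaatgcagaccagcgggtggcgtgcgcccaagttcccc
Agtr2: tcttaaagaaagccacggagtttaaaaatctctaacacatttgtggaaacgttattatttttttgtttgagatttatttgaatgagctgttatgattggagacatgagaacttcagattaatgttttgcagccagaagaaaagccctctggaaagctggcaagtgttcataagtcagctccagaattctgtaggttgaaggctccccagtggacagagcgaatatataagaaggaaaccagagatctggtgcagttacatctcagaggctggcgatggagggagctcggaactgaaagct
Mas1: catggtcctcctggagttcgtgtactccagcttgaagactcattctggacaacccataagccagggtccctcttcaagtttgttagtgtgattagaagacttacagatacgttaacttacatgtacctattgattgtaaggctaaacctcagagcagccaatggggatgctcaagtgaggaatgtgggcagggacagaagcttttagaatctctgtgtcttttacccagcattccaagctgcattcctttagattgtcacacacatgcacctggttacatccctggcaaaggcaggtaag
Each motif was searched on both strands in the promoters of the 8 members with an entry, 12 windows in all; Agtr1a has no entry. The motifs were the GATA site AGATAA, the AP-1 site TGACTCA, its variant TGACTAA, the hypoxia response core ACGTG and the TATA box TATAAA, and none of the matches in the 4 windows printed overlapped another. The Edn1 window held 3 matches: the GATA site on the minus strand at bases 259 to 264 of the window, the hypoxia core on the minus strand at bases 272 to 276 and the AP-1 variant on the plus strand at bases 287 to 293. Of all 32851 promoters of the same length, 11.2% hold the GATA site, 19.6% the hypoxia core, 2.35% the AP-1 variant, 5.20% the AP-1 site and 13.6% the TATA box. The windows of Ednrb, Agtr2 and Mas1 held none of these letters. An Ece1 window held the hypoxia core on both strands, at bases 161 to 165 on the minus strand and 162 to 166 on the plus strand, which overlap. The other Ece1 windows held none of these letters. A TATA box stood at bases 221 to 226 of the Agt window and, on the minus strand, at bases 220 to 225 of an Ace window.

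The arrays lay on 1 slide and were read in 1 scan, and row 2 of it held all 1-week samples and row 1 all newborn samples. An effect of age cannot be told apart from one of row, nor, among newborns, an effect of genotype from one of column (KI in 3 and 4, WT in 1 and 2). The 75th percentile of signal was 465 on array D, 658 to 732 on arrays A to C, and 621 to 652 at birth, and 58.9% to 63.1% of probes were well above background. Principal component analysis separated the ages on its leading axis (60.9% of variance) and array D on the next (11.7%). All 8 cardiomyocyte markers were above background on every array. Atrial markers, which ventricle should hold little of, summed to 10.7 on array A, 103 on B, 116 on C and 207 on D, in units of the array's 75th percentile of signal, and to 137 to 189 in KI and 103 to 107 in WT at birth. Their part in the results was not tested.

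The level of a gene is given as log2 of the processed signal minus log2 of the array's own 75th percentile, taken over features that are not controls, so a level of 0 is the 75th percentile. A difference is the fitted log2 difference with its limma standard error, from 1 model over the 8 arrays, and a gene was called when its Benjamini-Hochberg adjusted p over all 15744 genes was under 0.05. Levels of different probes are not compared. In ventricle RNA fewer cells of a type and less RNA per cell cannot be told apart.

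Edn1 and Ednra fell between birth and 1 week in both genotypes, and Mas1, below background at birth, rose in both. Mas1 entered the test only through the 1-week groups, so its place in the counts below depends in part on that selection. KI mice had 4 of 9 genes called, with Mas1 higher and Edn1, Ednra and Agtr2 lower, against 10.6% of all genes called in either direction (5.93% higher and 4.62% lower). In WT mice 5 of 9 were called, with Ace and Mas1 higher and Edn1, Ednra and Ednrb lower, against 19.3% of all genes (10.7% higher and 8.63% lower). The median difference over the 9 genes was -0.16 in KI, against -0.02 over all genes tested, and -0.38 in WT, against -0.02. The arrays of the 2 ages did not overlap for 6 of 9 genes in KI (60.1% of all genes) and for 9 of 9 in WT (62.9% of all genes). By the scanner-file samples 2 genes were higher and 2 lower in KI (15.5% of all genes called) and 1 was higher and 5 lower in WT (12.7%).

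**Figure D1:**
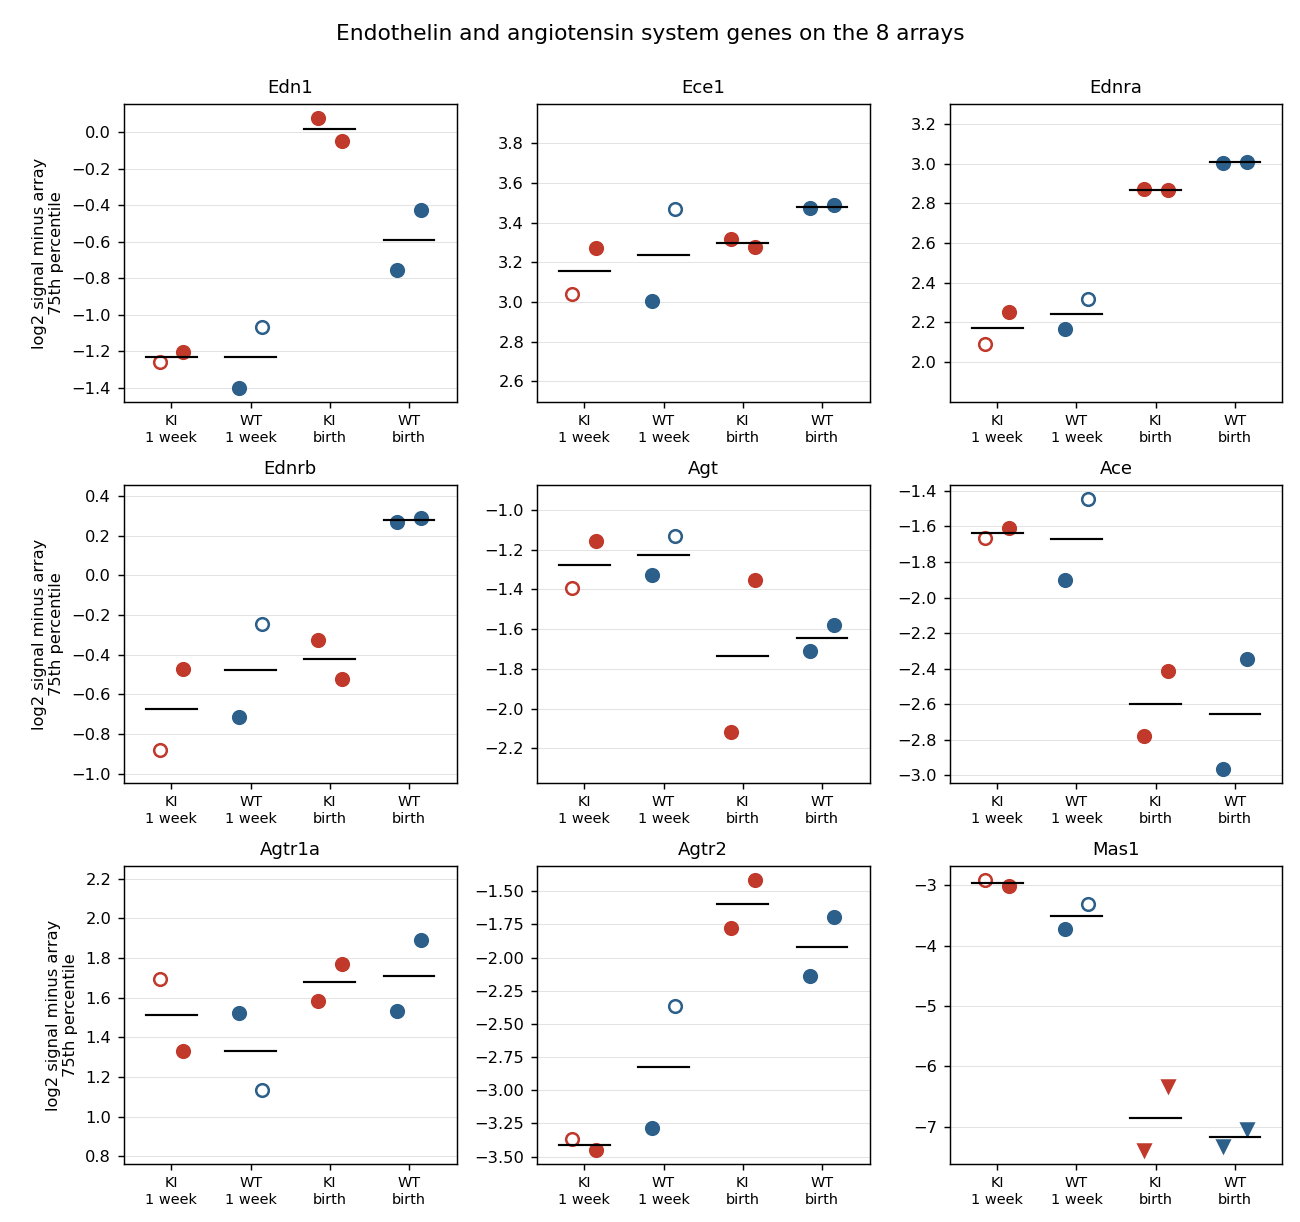
Levels of the 9 genes (brightest probe of each) on the 8 arrays, as log2 signal minus the array's 75th percentile on the vertical axis of each panel, whose range differs between panels; red points are KI, blue points WT, black lines group means, open points the arrays B and D whose genotype differs between the records, and triangles point to values not well above background. Edn1 lies between -1.40 and -1.06 at 1 week and between -0.75 and 0.08 at birth, and Mas1 is above background on the 4 arrays at 1 week alone.

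Edn1, the gene of the endothelin-1 precursor, had levels of -1.26 and -1.21 in KI and -1.40 and -1.06 in WT at 1 week, and of 0.08 and -0.05 in KI and -0.75 and -0.43 in WT at birth. All 4 arrays at 1 week lay below all 4 arrays at birth, and at birth both KI arrays lay above both WT arrays, while the genotypes overlapped at 1 week. From highest to lowest the group means ran KI at birth, WT at birth, then KI and WT at 1 week at -1.23 each. Edn1 fell in KI by 1.25 on the log2 scale (SE 0.17, 2.38-fold; adjusted p = 0.00656 in limma) and in WT by 0.64 (SE 0.17, 1.56-fold; adjusted p = 0.0417). The fall in KI was called under all 20 alternatives, with differences from -1.31 to -1.02. In WT it was called under 11 of 20. There it was lost when any array but D was left out: without A the difference was -0.47 (adjusted p = 0.100) and without WT birth replicate 2 it was -0.48 (adjusted p = 0.178), without WT birth replicate 1 -0.81 (adjusted p = 0.0676), and without either KI birth array or B or C it stayed at -0.64 with an adjusted p of 0.0669 to 0.0713.

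Endothelial cells are a main source of the peptide, and the sums of their markers were higher at 1 week. The 8 endothelial markers summed to 123 and 143 in KI and 134 and 177 in WT at 1 week, and to 95.9 and 96.1 in KI and 99.7 and 96.0 in WT at birth, in units of the 75th percentile. In both genotypes 7 of the 8 had positive differences with age. Of the 8 endothelial markers 2 were called higher in KI (5.93% of all genes) and 4 in WT (10.7%). Of the 5 endocardial markers 2 were called lower with age in each genotype (4.62% of all genes in KI and 8.63% in WT). Their sums were 3.06 to 3.28 in KI and 3.05 to 5.23 in WT at 1 week, and 5.18 to 5.39 in KI and 6.03 to 6.19 in WT at birth. The 8 cardiomyocyte markers summed to between 1557 and 1755 on every array, and none of them was called with age. Their part in the Edn1 values was not tested.

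Ece1, the endothelin-converting enzyme, differed less. Its brighter probe had levels of 3.04 and 3.27 in KI and 3.01 and 3.47 in WT at 1 week, and of 3.32 and 3.28 in KI and 3.47 and 3.49 in WT at birth. The arrays at 1 week lay below those at birth in each genotype, though array D stood almost level with the WT arrays at birth. The difference with age was -0.14 ± 0.18 in KI (95% interval -0.56 to 0.28; adjusted p = 0.677) and -0.24 ± 0.18 in WT (-0.66 to 0.18; adjusted p = 0.357). Under the scanner-file samples, where D is KI and B is WT, Ece1 was called lower in WT (-0.46 ± 0.11; adjusted p = 0.0482) and stood at 0.07 ± 0.11 in KI. The dimmer Ece1 probe overlapped between ages in both genotypes and gave -0.07 ± 0.30 in KI and 0.41 ± 0.30 in WT.

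Ednra, the receptor that carries the constrictor and growth actions of endothelin-1, had levels of 2.09 and 2.25 in KI and 2.17 and 2.32 in WT at 1 week, and of 2.87 and 2.87 in KI and 3.0 and 3.01 in WT at birth. No array at 1 week reached any array at birth. It fell in KI by 0.70 on the log2 scale (SE 0.12, 1.62-fold; adjusted p = 0.0162 in limma) and in WT by 0.76 (SE 0.12, 1.70-fold; adjusted p = 0.00874). The call held in 16 of 20 alternatives in KI and 18 of 20 in WT. It was lost in KI without KI birth replicate 1 or 2, B or C (adjusted p = 0.0767, 0.0899, 0.110 and 0.0607) and in WT without WT birth replicate 1 or 2 (adjusted p = 0.0517 and 0.0507), with differences from -0.78 to -0.62.

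Ednrb, the receptor of endothelium and neural crest derivatives, had levels of -0.88 and -0.47 in KI and -0.71 and -0.25 in WT at 1 week, and of -0.33 and -0.52 in KI and 0.27 and 0.29 in WT at birth. The WT arrays at birth stood above the other 6 arrays, which overlapped among themselves. The difference with age was -0.25 ± 0.21 in KI (adjusted p = 0.498), and in WT the gene fell by 0.76 on the log2 scale (SE 0.21, 1.69-fold; adjusted p = 0.0451). By the scanner-file samples these were 0.06 ± 0.14 in KI and -1.07 ± 0.14 in WT (adjusted p = 0.00642). The WT call was lost when any array but D was left out: without A the difference was -0.52 (adjusted p = 0.110), and without WT birth replicate 1 or 2 or any KI array it was -0.77 to -0.75 with an adjusted p of 0.0511 to 0.156. It held under 9 of 20 alternatives.

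The 3 Ednrb probes did not show 1 pattern. The second probe had levels of -2.13 and -2.52 in KI and -1.75 and -1.83 in WT at 1 week, and of -2.11 and -2.11 in KI and -1.55 and -1.56 in WT at birth. On it both KI arrays lay below both WT arrays at each age, by -0.53 ± 0.16 at 1 week and -0.56 ± 0.16 at birth, with adjusted p of 0.695 and 0.924 when every probe was fitted by itself. Under the scanner-file samples the second probe overlapped between genotypes at 1 week (-0.24 ± 0.24). The third probe fell below background on arrays A and C and differed by -1.11 ± 0.43 in KI and -1.02 ± 0.43 in WT with age (adjusted p = 0.185 and 0.143). Its KI and WT arrays overlapped at both ages. By the scanner-file samples the third probe was called with age in WT (-1.52 ± 0.32; adjusted p = 0.0311), a value that includes array A below background. In that record its KI arrays at 1 week (C -5.26 and D -4.33) lay above its WT arrays (A -5.85 and B -5.32), with A and C below background.

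**Figure D2:**
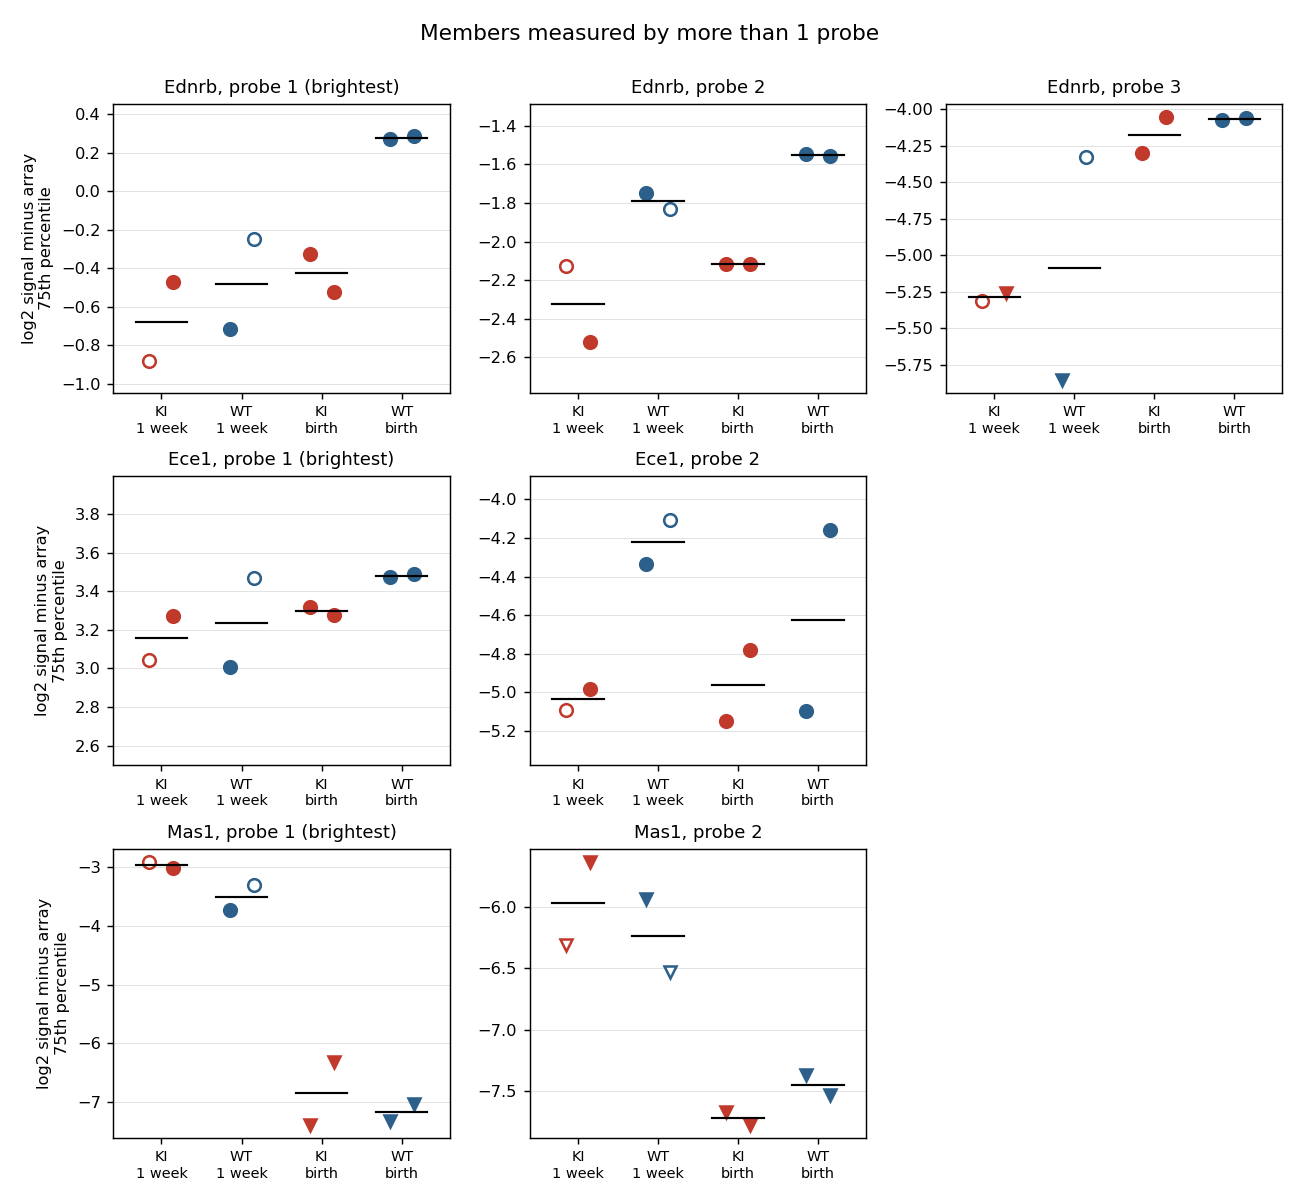
Levels of each probe of Ednrb (3), Ece1 (2) and Mas1 (2) on the 8 arrays, as log2 signal minus the array's 75th percentile; red is KI, blue WT, black lines are group means, open symbols the arrays whose genotype differs between the records and triangles values not well above background. The KI arrays lie below the WT arrays at both ages on the second Ednrb probe (-2.52 to -2.11 against -1.83 to -1.55), and the second Mas1 probe is below background on all 8 arrays.

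Agt, the gene of angiotensinogen, had levels of -1.39 and -1.16 in KI and -1.32 and -1.13 in WT at 1 week, and of -2.12 and -1.35 in KI and -1.71 and -1.58 in WT at birth. KI birth replicate 2 lay between the KI arrays at 1 week, so the ages overlapped in KI and not in WT. The difference with age was 0.46 ± 0.25 in KI (95% interval -0.14 to 1.05; adjusted p = 0.309) and 0.42 ± 0.25 in WT (-0.18 to 1.01; adjusted p = 0.269). In KI it was 0.074 without KI birth replicate 1 and 0.84 without KI birth replicate 2 (adjusted p = 0.869 and 0.0776). Liver makes most circulating angiotensinogen, and the 6 liver markers summed to 0.541 to 0.753 in KI and 0.421 to 1.44 in WT at 1 week, and to 1.66 to 1.68 in KI and 1.97 to 3.11 in WT at birth. Apoa1 and Fga of that list were above background on no array, and the part of liver RNA in the Agt values was not tested. Adipose tissue makes angiotensinogen too, and the 6 adipocyte markers all had positive differences with age in both genotypes (median 3.88 in KI and 2.53 in WT). None of them was called in KI and 1 was called higher in WT (5.93% and 10.7% of all genes called higher). The 6 markers summed to 126 on B and 176 on C in KI and 130 on A and 186 on D in WT at 1 week, and to 123 to 131 in KI and 134 to 141 in WT at birth. These sums rest mainly on Fabp4 (6.76 to 6.99 at birth and 6.73 to 7.32 at 1 week) and Cidea, which were bright at both ages. They hardly register the dimmer genes Ucp1, Adipoq, Plin1 and Cfd. Ucp1 of that list, a gene of brown fat, had levels of 0.04 on B and 0.74 on C in KI and -6.77 on A and 1.96 on D in WT. The part of adipose RNA in the Agt values was not tested.

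Ace, the angiotensin-converting enzyme, had levels of -1.67 and -1.61 in KI and -1.90 and -1.44 in WT at 1 week, and of -2.78 and -2.41 in KI and -2.97 and -2.34 in WT at birth. All 4 arrays at 1 week lay above all 4 arrays at birth. The difference with age was 0.96 ± 0.25 in KI, which did not pass (adjusted p = 0.0611 in limma), and in WT Ace rose by 0.98 ± 0.25 (1.98-fold; adjusted p = 0.0393). The scanner-file samples gave the call to KI (1.07 ± 0.24; adjusted p = 0.0296) and not to WT (0.87 ± 0.24; adjusted p = 0.0580). The WT call was lost without WT birth replicate 1 (0.67; adjusted p = 0.176), D (0.75; 0.160), either KI birth array (0.98; 0.0544) or B or C (0.98; 0.0663), and KI passed without either WT birth array (0.96; 0.0479). The age by genotype difference of Ace was -0.02 ± 0.36 (95% interval -0.88 to 0.83). Ace is abundant on capillary endothelium, whose markers summed higher at 1 week as given above; their part in the result was not tested.

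Agtr1a, the main receptor for the constrictor actions of angiotensin II, had levels of 1.70 and 1.33 in KI and 1.52 and 1.14 in WT at 1 week, and of 1.59 and 1.77 in KI and 1.53 and 1.89 in WT at birth. The 4 groups spanned a narrow range and the ages overlapped in KI. The difference with age was -0.16 ± 0.21 in KI (95% interval -0.66 to 0.33; adjusted p = 0.682) and -0.38 ± 0.21 in WT (-0.88 to 0.11; adjusted p = 0.231). Under the scanner-file samples it was -0.44 ± 0.17 in KI and -0.10 ± 0.17 in WT, and neither passed.

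Agtr2, the receptor of fetal tissues, had levels of -3.37 and -3.45 in KI and -3.28 and -2.37 in WT at 1 week, and of -1.78 and -1.41 in KI and -2.14 and -1.70 in WT at birth. All arrays at 1 week lay below all arrays at birth, and array D stood well above A, B and C. In KI the gene fell by 1.81 on the log2 scale (SE 0.31, 3.52-fold; adjusted p = 0.0147 in limma), and in WT the difference of -0.90 ± 0.31 did not pass (adjusted p = 0.0852). Without D the WT difference was -1.36 and passed (adjusted p = 0.0257), and without A it was -0.45 and did not. The KI call was lost without KI birth replicate 2 (-1.63; 0.0906), B (-1.86; 0.0739) or C (-1.77; 0.0832). With D as KI and B as WT, by the scanner files, the differences were -1.31 ± 0.35 in KI (adjusted p = 0.0524) and -1.41 ± 0.35 in WT (adjusted p = 0.0481). The ages did not overlap in either record, and the genotype that passed differed between the records. The age by genotype difference was -0.91 ± 0.44 (adjusted p = 0.883) by the value table and 0.09 ± 0.50 (adjusted p = 0.985) by the scanner files.

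Mas1, the receptor gene for angiotensin-(1-7), had levels of -2.90 and -3.0 in KI and -3.72 and -3.30 in WT at 1 week on its brighter probe, and of -7.39 and -6.32 in KI and -7.32 and -7.04 in WT at birth. The probe was well above background on all 4 arrays at 1 week and on none at birth. Mas1 thus met the signal filter only through the 1-week groups, where it was high. Its calls with age, under the alternatives too, depend in part on this selection. Mas1 was at least 6.53-fold higher at 1 week in KI (fitted difference 3.90 ± 0.34, adjusted p = 0.0017 in limma). In WT it was at least 3.66-fold higher (3.67 ± 0.34, adjusted p = 0.00151 in limma). A bound sets the mean of the brighter group against the lowest signal well above background on each dim array, or the dim probe's own signal where that is higher. The call held in 19 of 19 alternatives in each genotype. With the normexp correction, which adds an offset of 50 before the logarithm, the differences were 1.06 in KI and 0.89 in WT and did not reach the bounds. The dimmer Mas1 probe was below background on all 8 arrays, with levels of -6.31 and -5.63 in KI and -5.93 and -6.53 in WT at 1 week, and of -7.67 and -7.77 in KI and -7.37 and -7.53 in WT at birth.

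**Figure D3:**
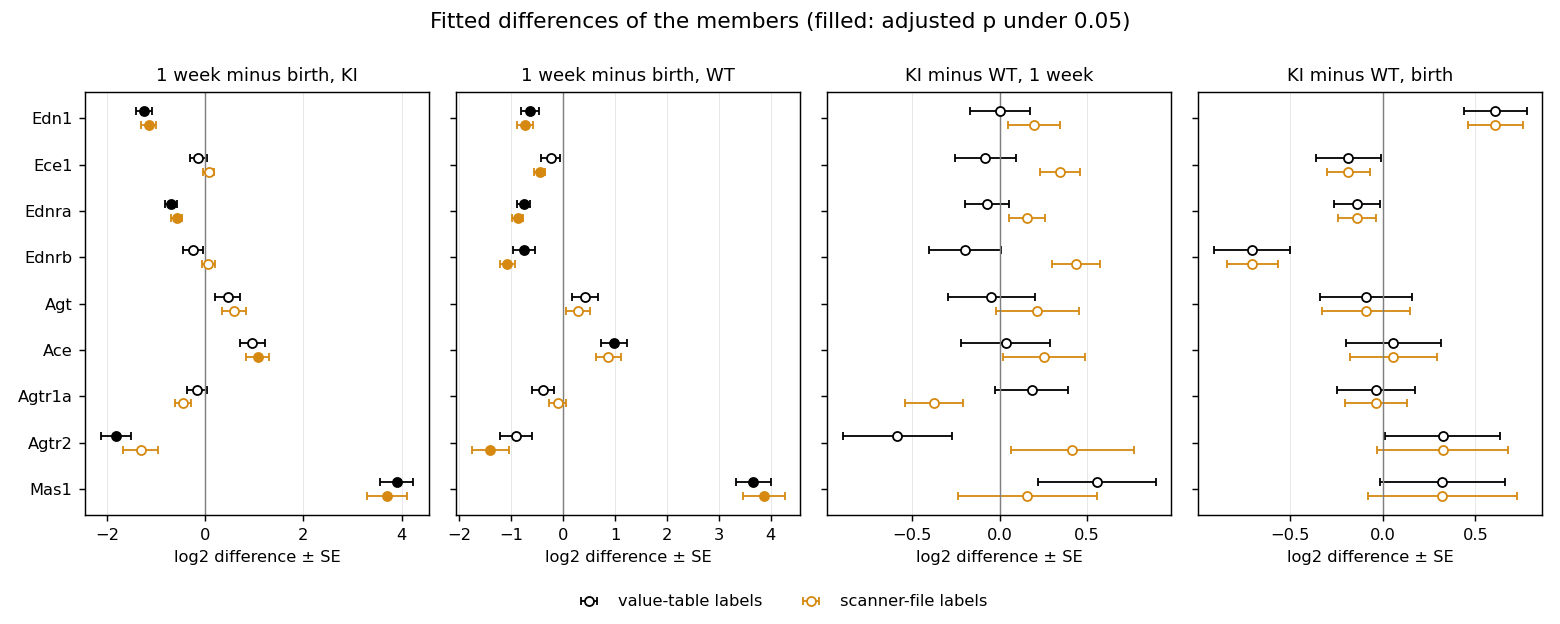
Fitted log2 differences of the 9 genes with limma standard errors as bars, for 1 week minus birth in KI and in WT and for KI minus WT at 1 week and at birth; black is the value-table record, orange the scanner-file record, and filled points passed an adjusted p of 0.05 over all genes tested. Horizontal ranges differ between panels: differences with age reach 3.90 for Mas1 and those between genotypes run from -0.70 to 0.61 in the value-table record, where none is filled.

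The comparison of KI with WT asked whether these genes differ in the knock-in heart at birth and at 1 week. At birth, Edn1 was higher on both KI arrays and Ednrb, Ednra and Ece1 were lower on both, but no member passed over all genes. In limma 0 of 9 genes were called, against 0.0381% of all genes, and 2 of 9 had an unadjusted p under 0.05, against 4.62% of all genes. The arrays of KI and WT did not overlap for 4 of 9, against 32.3% of all genes. The median difference over the 9 was -0.03, and over all genes it was -0.00.

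The 2 with an unadjusted p under 0.05 at birth were Edn1 and Ednrb, ligand and receptor, in opposite directions. Edn1 stood at 0.61 ± 0.17 (95% interval 0.20 to 1.01, adjusted p = 0.714 in limma), and at 0.44 to 0.77 over the 20 alternatives. Ednrb stood at -0.70 ± 0.21 (-1.19 to -0.21, adjusted p = 0.747 in limma), and at -0.80 to -0.46 over them. That neither sign changed is no test. The arrays did not overlap, so leaving 1 out could not reverse a sign. Changes to the 1-week samples left both differences as they were. In the limma fit by the scanner-file samples the adjusted p of Edn1 and Ednrb was 0.793 and 0.769. The 8 endothelial markers, given above, differed with a median of -0.08 between KI and WT at birth, and 1 of 8 was positive. Of the 5 endocardial markers, whose sums are given above, 0 had a positive difference, none of either list was called, and their part in the Edn1 and Ednrb values was not tested. The other members at birth were Ece1 (-0.18 ± 0.18), Ednra (-0.14 ± 0.12), Agt (-0.09 ± 0.25), Ace (0.06 ± 0.25), Agtr1a (-0.03 ± 0.21), Agtr2 (0.32 ± 0.31) and Mas1, below background in both groups.

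At 1 week 0 of 9 genes were called in limma (0.0445% of all genes) and 0 of 9 had an unadjusted p under 0.05 (7.15% of all genes). The KI and WT arrays did not overlap for 2 of 9 genes (38.3% of all genes): Agtr2 was lower on both KI arrays (-0.59 ± 0.31; adjusted p = 0.679) and Mas1 higher (0.56 ± 0.34; adjusted p = 0.691). Without A these were -1.04 and 0.35, and without D they were -0.13 and 0.77. Edn1 was at 0.00 ± 0.17 (95% interval -0.40 to 0.41), and the interval for Ednrb ran from -0.68 to 0.29. With the scanner-file samples 0 of 9 were called (0% of all genes), 2 of 9 had an unadjusted p under 0.05 (10.4%), and 7 of 9 did not overlap (40.8%). Of these Edn1, Ece1, Ednra, Ednrb, Agt and Ace were higher on both KI arrays and Agtr1a was lower, with Ednrb at 0.44 ± 0.14 and Ece1 at 0.35 ± 0.11. Array D, which is KI in that record and WT in the value table, was the highest of the 1-week arrays for those 6 genes and the lowest for Agtr1a.

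Whether the genotype difference changed with age was tested as age by genotype. None of the 9 genes was called (0.00635% of all genes), and 1 of 9 had an unadjusted p under 0.05, against 4.99% of all genes. That gene was Edn1, at -0.60 ± 0.24 (adjusted p = 0.883 in limma), and -0.41 ± 0.21 by the scanner-file samples. For Ednrb the value was 0.50 ± 0.29 by the value table and 1.14 ± 0.19 by the scanner files (adjusted p = 0.727). A call with age in 1 genotype and not in the other thus came with no called difference between the genotypes.

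The other genes of both systems were listed beside the members. Of 7 further endothelin genes 5 were tested, since Edn3 was above background on no array and Ece2 on 1. None of the 5 was called with age in WT (19.3% of all genes called). In KI 1 of the 5 was called (10.6% of all genes): Edn2, a close relative of Edn1, was lower. Edn2 had levels of -6.38 and -6.28 in KI and -6.24 and -7.23 in WT at 1 week, and of -4.72 and -4.87 in KI and -6.23 and -5.72 in WT at birth. It was well above background on the 2 KI arrays at birth alone. It thus met the signal filter only through the group where it was high. Its differences with that group depend in part on this selection. At 1 week in KI it was at least 1.57-fold lower than at birth (fitted difference -1.53 ± 0.32; adjusted p = 0.0288), and at birth in KI it was at least 1.51-fold higher than in WT (1.18 ± 0.32; adjusted p = 0.696). The KI call held in 11 of 19 alternatives and was lost without any 1 of the 4 KI arrays (adjusted p = 0.114 to 0.135). With normexp the 2 differences were -0.36, which did not pass (adjusted p = 0.164), and 0.23. The remaining 4 endothelin genes, the endopeptidases Mme, Ecel1 and Kel and the precursor-cutting protease Furin, were not called in any comparison. At 1 week Mme was at 0.51 ± 0.20 and Ecel1 at 0.48 ± 0.18 in KI against WT, and both had the opposite sign by the scanner-file samples (-0.27 and -0.11).

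Of 21 further angiotensin and aldosterone genes 15 were tested. Of the others, Agtr1b, Mrgprd, Cyp11b1 and Hsd11b2 were above background on no array and Cyp11b2 on 1. With age, 1 gene was called higher and 1 lower in KI (10.6% of all genes called), and 3 higher and 3 lower in WT (19.3% of all genes). Anpep, an aminopeptidase that trims angiotensin III, rose in both (KI 0.67 ± 0.15, adjusted p = 0.0332; WT 0.94 ± 0.15, adjusted p = 0.00788). The Anpep call held in 13 of 20 alternatives in KI, where any 1 of 6 arrays left out ended it (adjusted p = 0.0571 to 0.168), and in 18 of 20 in WT, where it was lost without WT birth replicate 1 (adjusted p = 0.0522). Ctsg, the gene of the neutrophil and mast cell protease cathepsin G, fell in both and was below background on all 1-week arrays, at least 1.49-fold lower in KI and at least 1.35-fold lower in WT (adjusted p = 0.0197 and 0.00132). Ctsg met the signal filter only through the birth groups, where it was high. Its differences with age depend in part on this selection. With normexp the Ctsg differences were -0.22 in both genotypes and neither passed (adjusted p = 0.463 and 0.388). The Ctsg call held in 14 of 19 alternatives in KI, being lost also without KI birth replicate 2 or B (adjusted p = 0.116 and 0.115) and by the scanner files (adjusted p = 0.0783), and in 17 of 19 in WT. The others called in WT were Ren1 and the mineralocorticoid receptor gene Nr3c2 (1.05 ± 0.28; adjusted p = 0.0439) on the higher side, and Enpep, whose aminopeptidase cuts angiotensin II (-0.69 ± 0.19; adjusted p = 0.0493), and the oligopeptidase gene Nln (-0.87 ± 0.20; adjusted p = 0.0291), named after its value was seen, on the lower side. By the scanner-file samples none of these 6 WT calls held, and in KI Anpep (0.95 ± 0.22) and Prcp, the gene of a carboxypeptidase that cuts angiotensin II (0.62 ± 0.13; adjusted p = 0.0229), were called higher.

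Ren1, the renin gene, had levels of -5.14 and -5.38 in KI and -4.50 and -4.26 in WT at 1 week, and of -4.65 and -4.51 in KI and -6.51 and -5.80 in WT at birth. KI lay above WT at birth and below it at 1 week, on both arrays each time. The probe was below background on both WT arrays at birth and on array C at 1 week. Ren1 thus met the signal filter only through KI at birth and WT at 1 week, where it was high. Its differences with those groups depend in part on this selection. At birth Ren1 was at least 1.75-fold higher in KI than in WT (fitted difference 1.58 ± 0.24; adjusted p = 0.242 in limma) and at 1 week it was at -0.88 ± 0.24, a value that includes array C below background (adjusted p = 0.543). The age by genotype difference did not pass (adjusted p = 0.389), and it rests on WT birth arrays below background. In WT it was at least 2.01-fold higher at 1 week than at birth (adjusted p = 0.00491). Normexp gave 0.21 for KI against WT at birth and 0.41 for age in WT (adjusted p = 0.109), and the scanner-file samples gave -0.00 ± 0.42 at 1 week and no call with age in WT (1.33 ± 0.42; adjusted p = 0.0864). Ren1 lies on chromosome 1, as Tnnt2 does, and some mouse strains carry a near-identical renin gene that the probe may not separate, so these values are uncertain.

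Cma1, a mast cell chymase gene, had levels of 0.46 and 0.72 in KI and -0.44 and -0.09 in WT at 1 week. At birth its levels were 0.91 and 1.09 in KI and 0.24 and 0.22 in WT. Both KI arrays lay above both WT arrays at each age. The difference was 0.86 ± 0.17 at 1 week (adjusted p = 0.337 in limma) and 0.78 ± 0.17 at birth (adjusted p = 0.501), and neither passed over all genes. With the scanner-file samples the 1-week arrays overlapped (0.30 ± 0.35).

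**Figure D4:**
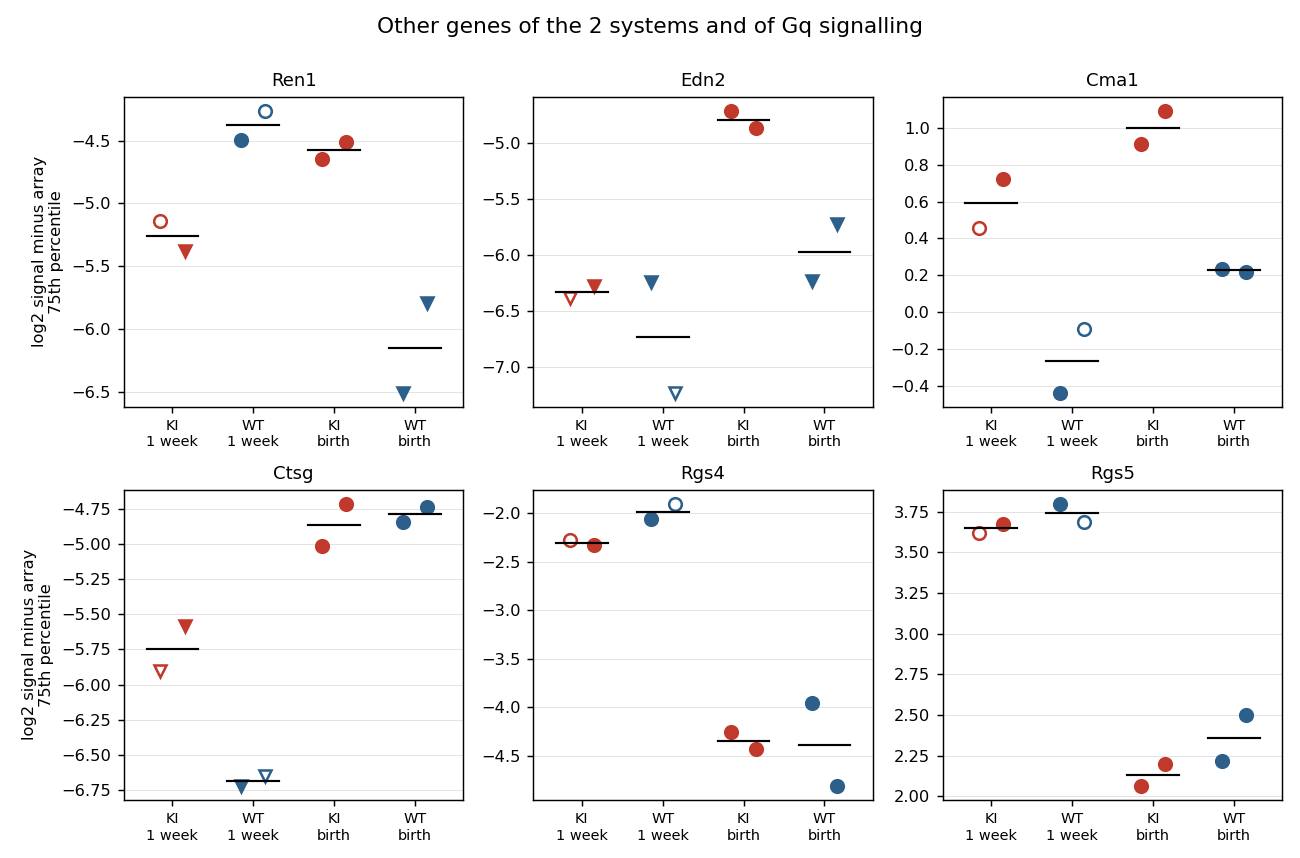
Levels of 6 other genes of the endothelin and angiotensin systems and of Gq signalling on the 8 arrays, as log2 signal minus the array's 75th percentile, with a separate vertical range in each panel; red is KI, blue WT, black lines are group means, open symbols the arrays whose genotype differs between the records and triangles values not well above background. Cma1 is higher on both KI arrays at each age (0.46 to 1.09 against -0.44 to 0.24), and Rgs4 and Rgs5 are higher on every array at 1 week than at birth.

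The receptors of Ednra and Agtr1a signal through Gq proteins, and 21 of 22 genes of that pathway were tested. With age 2 were called higher and 1 lower in KI (10.6% of all genes called), and 3 higher and none lower in WT (19.3% of all genes); in the genotype comparisons and in age by genotype none was called. The genes that rose were regulators of G-protein signalling, which shorten the signal of such receptors. Rgs4 had levels of -2.28 and -2.33 in KI and -2.06 and -1.91 in WT at 1 week, and of -4.26 and -4.43 in KI and -3.96 and -4.81 in WT at birth. It rose by 2.04 ± 0.26 in KI (adjusted p = 0.00527) and 2.40 ± 0.26 in WT (adjusted p = 0.00241), or 0.99 and 1.22 with normexp. Rgs5 rose by 1.52 ± 0.14 in KI and 1.39 ± 0.14 in WT (adjusted p = 0.00206 and 0.0020), and Rgs2 by 0.60 ± 0.13 in WT (adjusted p = 0.0207) beside 0.20 ± 0.13 in KI. The Rgs2 call held in 15 of 20 alternatives and was lost by the scanner-file samples (0.48; adjusted p = 0.125) and without WT birth replicate 1 (0.53; 0.116) or 2 (0.67; 0.0619). Prkcd, a protein kinase C gene, was called lower in KI at -0.60 ± 0.14 (adjusted p = 0.0436) and stood at -0.50 ± 0.14 in WT (adjusted p = 0.0526). Its KI call held in 7 of 20 alternatives and was lost without any 1 of the 8 arrays (adjusted p = 0.0506 to 0.225). The smallest p-values between genotypes in the list belonged to the receptor kinase gene Grk5 (0.20 ± 0.12) and the calcium channel gene Itpr1 (0.20 ± 0.12) and to Rgs5 (-0.23 ± 0.14) at birth, and to Prkca (0.32 ± 0.14), Rcan1, a calcineurin inhibitor gene (0.40 ± 0.19), and Rgs2 (-0.36 ± 0.13) at 1 week. Arrb2, the gene of a beta-arrestin, had an age by genotype difference of -0.34 ± 0.19. Rgs5 is also a marker of mural cells, and the 8 mural markers summed to 101 to 107 in KI and 127 to 143 in WT at 1 week, and to 124 to 132 in KI and 105 to 128 in WT at birth. With age 3 of the 8, Rgs5 among them, were called higher and 1 lower in KI (median difference 0.38), and 3 higher in WT (median 0.60). Of all genes, 5.93% were called higher and 4.62% lower in KI, and 10.7% higher in WT. The part of mural cells in the Rgs5 result was not tested.

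Fibroblasts of the heart express Agtr1a, and their markers summed to 311 to 328 in KI and 308 to 413 in WT at 1 week, and to 164 to 194 in KI and 180 to 183 in WT at birth. Of the 8, 3 were called higher with age in KI (5.93% of all genes), and 4 higher and 1 lower in WT (10.7% and 8.63%). Their part in the values of Agtr1a and the other receptor genes was not tested.

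Over the 8 arrays each member above background everywhere was set beside the others of 14551 tested genes. Genes with clone, predicted or similar provisional names were left out. The 2 genes with the highest Pearson r were named as a description. The points are 4 arrays at each of 2 ages on 1 slide, so a difference with age enters every r. The nearest were Mctp2 (r = 0.995) and Bst2 (0.985) for Edn1, Aldh1l1 (0.995) and Tmem108 (0.995) for Ednra, Dnajc2 (0.973) and Aftph (0.966) for Ednrb, and Lsr (0.954) and Frs3 (0.951) for Ece1. For the angiotensin genes they were Hopxos (0.981) and Slc38a6 (0.972) for Agt, Tap2 (0.987) and Mill2 (0.982) for Ace, Ccrl2 (0.966) and Hdac11 (0.964) for Agtr1a, and Bcr (0.987) and Zfp809 (0.986) for Agtr2.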

How the data were processed

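The members and gene lists were chosen with earlier results of these data known. Per the labels' protocols, 100 ng of TRIzol-extracted RNA was labelled with Cy3. The deposited scanner files hold processed signals as intensity on a linear scale, background-corrected by the scanner software and not normalized between arrays, and flags (other) coded 0 and 1 per the file headers; the deposited value table holds the same intensity averaged by probe. The file headers give Feature Extraction 11.0.1.1 and genome build mm9, and the submitters' processing notes give version 9.1. Each value-table column equalled 1 scanner file over 56305 single-spot probes (relative tolerance 0.0001), 3 of the 8 the file of another sample.

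Spots of a probe were averaged without outliers, log2 transformed and scaled by the 75th percentile of 59305 non-control features. Probes were named through RefSeq accessions (GRCm38.p6). The brightest probe stood for a gene, and a gene entered the test when 1 group or more had that probe well above background on each of its arrays. limma 3.58.1 (R 4.3.3) fitted 4 group means over 8 arrays with 4 residual and 2.89 prior degrees of freedom. On simulated data for KI against WT at birth with 15744 genes, 48 of 100 changes of 2-fold and 86 of 100 of 4-fold were recovered, with 5 unchanged genes called.

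Named were all members and, of the 3 other lists, genes called by genotype and the 3 smallest p-values of each comparison. Alternatives were the scanner-file samples, the value table, normexp (on median signals, since no mean signal column was present), quantile and median scaling, other filters and probe rules, a variance trend, a replicate block, the 4 arrays compared, and each array left out. The number of arrays limits the precision.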

Additional observations from a re-analysis of the deposited data

How the results depend on the processing

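No member was called between genotypes or by age and genotype under any alternative. With age, the members called higher in KI numbered 2, against 1, by the scanner files, normexp, quantile, median scaling, the replicate block, the variance trend and only 4 arrays, and 1 to 2 with 1 array left out; those lower numbered 1 to 3, against 3. In WT those higher numbered 1, not 2, by the scanner-file samples, with no filter on dim probes, with the filter on all arrays and with only the 4 arrays compared, and 1 to 2 with 1 array left out. Those called lower in WT numbered 5 by the scanner files, 1 with no filter and 1 with only 4 arrays, against 3. Agtr2 was called lower in WT as well with quantile normalization, median scaling and the replicate block. Fewer members were called lower in WT with any 1 array but D left out. Which members passed in WT also changed with 1 array left out, as given for each gene above. Over all genes 3037 were called with age in WT, against 2005 by the scanner files, 1896 with no filter, 1430 with only 4 arrays and 1174 to 4123 with 1 array left out. In KI 1661 were called, against 2444, 1079 with no filter and 566 to 2009 with 1 array left out. The replicate numbers do not pair the arrays by any label, and same-numbered arrays had deviation correlations of 0.286, 0.165, 0.153 and -0.137 in the 4 comparisons; the replicate block gave Ace in KI (adjusted p = 0.0213) and Agtr2 in WT (adjusted p = 0.0476) the call. Median scaling moved the median of all genes with age in WT to -0.20, against -0.02. Below are the differences that changed sign; none was called in the report, Ecel1 with age in KI was called with the mean of all probes, and the cause was not tested. By the scanner files these were, at 1 week, Agt 0.22, Agtr1a -0.38, Agtr2 0.42, Ece1 0.35, Ecel1 -0.11, Ednra 0.16, Ednrb 0.44, Mme -0.27 and Rcan1 -0.19; with age in KI, Ece1 0.074, Ecel1 -0.00099 and Ednrb 0.064; and in age by genotype, Ace 0.20, Agtr1a -0.34, Agtr2 0.093, Mas1 -0.16, Mme -0.59 and Rcan1 -0.12. With the mean of all probes they were Ece1 0.082 with age in WT and -0.19 in age by genotype, and Ecel1 -1.15 with age in KI and -0.18 at 1 week. Median scaling gave Ace 0.14 in age by genotype and, at 1 week, Agt 0.063, Ece1 0.030 and Ednra 0.038, and quantile normalization gave Ace 0.066 in age by genotype. Normexp gave Ace -0.014 at birth and 0.015 in age by genotype, Agtr1a 0.025 with age in KI, Ctsg -0.12 at 1 week and -0.0065 in age by genotype, Edn2 0.088 with age in WT, and Mas1 -0.048 at birth; both groups were below background for Ctsg at 1 week, Edn2 in WT and Mas1 at birth. With 1 array left out, ranges that crossed 0 were, at birth, Ace -0.25 to 0.37, Agt -0.47 to 0.29, Agtr1a -0.21 to 0.14 and Mas1 -0.21 to 0.86. At 1 week they were Ace -0.19 to 0.26, Agt -0.17 to 0.070, Agtr1a -0.0093 to 0.38, Ece1 -0.31 to 0.15, Edn1 -0.17 to 0.17, Ednra -0.15 to 0.0094 and Ednrb -0.43 to 0.036. For age by genotype they were Ace -0.33 to 0.29, Agt -0.34 to 0.42, Ece1 -0.13 to 0.33, Ednra -0.017 to 0.15, Mas1 -0.30 to 0.77 and Mme -0.071 to 0.45, and with age in KI Agtr1a -0.35 to 0.019.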

Other observations

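Other mast cell genes were looked at after the values of Cma1 were seen, and they are given as values. Of 7 such genes 5 were above background on all 8 arrays. Both KI arrays lay above both WT arrays for 2 of the 7 at 1 week and for 5 at birth. Over all genes tested, the arrays did not overlap for 38.3% at 1 week and 32.3% at birth. Those shares count KI arrays above or below WT, so they are larger than a share for KI above alone. Cpa3, a mast cell carboxypeptidase that can trim angiotensin I, and the protease gene Mcpt4 had both KI arrays above at both ages. Cpa3 differed by 1.1 at 1 week and 0.76 at birth between KI and WT, and Mcpt4 by 1.17 and 0.78. By the scanner-file samples both differed by 0.15 at 1 week. Kit, the stem cell factor receptor of mast cells, differed by -0.20 at 1 week and -0.22 at birth. Tpsb2 differed by -0.20 at 1 week and 0.46 at birth, and Hdc by -0.08 and 0.31. Fcer1a differed by 0.78 and 0.71. For Tpsb2, Hdc and Fcer1a the KI and WT arrays overlapped at 1 week. Ms4a2 was above background on no array.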
